A study of Mus musculus with 10 samples.

Results

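Genes of stratified, squamous epithelium were followed across mouse cells on their way to pluripotency. The set holds 9 genes of the 12393 that the array names by a single symbol, namely the keratin genes Krt6a, Krt6b, Krt14 and Krt17, the keratinocyte genes Krtdap and Rptn, and the junction and stress genes Perp, Pkp1 and Sfn. They were chosen by name, with measured levels in the day 32 cells in view, as marks of a keratinocyte-like fate. Their levels in the day 32 sample are therefore a description here and were not tested. The array carries 16 probe sets for them, of which 11 lay above 4 (log2) on 2 or more of the 10 arrays, and each of the 9 genes had at least 1 such probe set. A member whose probe set passed this filter only through the group where it is high was bound to differ between groups.

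The series holds 5 groups of 2 single-channel arrays, labelled replicates a and b. Established induced pluripotent stem cells (iPSC) were grown in 2i and serum, or together with mouse embryonic fibroblasts (MEFs). The other 3 groups started from secondary MEFs, fibroblasts that can be made to express the Yamanaka reprogramming factors, and had expressed them for 32 days. They are a day 32 sample with no fraction named, and the Sox2-positive and Sox2-negative fractions of such cells, in a series on sorting by RNA content (RNA FACS). All 10 samples carry the cell type label iPSC, and standard mouse embryonic stem cell medium was used except where noted. Strain, age, the number of lines or clones, and whether feeder MEFs were removed before lysis is not stated in the labels. Nothing in the labels says that replicates came from separate cultures, so each p-value reflects the spread of these samples alone, which may be technical.

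Keratins build the intermediate filaments of epithelial cells as pairs of a type I and a type II chain. Basal cells of stratified epithelium make Krt5 with Krt14, and wounded or hair follicle epithelium adds Krt6a, Krt6b, Krt16 and Krt17, which is why these are called stress keratins. The transcription factor Trp63 directs the basal program. Pkp1 and Perp belong to the desmosomes that join such cells, while Krtdap and Rptn are made as keratinocytes differentiate and cornify.

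The arrays fell into 2 classes that bear on several members. The control probe set for 18S ribosomal RNA read 5.25 to 6.55 on the 4 arrays of iPSC in 2i and serum and of the day 32 sample, and 11.35 to 13.22 on the 6 other arrays. Array medians were 5.40 to 5.49 in the first class and 4.37 to 4.44 in the second. The labels name 2 amplification kits without saying which sample received which. The sorted fractions lie in the same class and so can be compared with each other and with iPSC grown with MEFs, and the day 32 sample with iPSC in 2i and serum. In any other pairing class and group cannot be told apart. No fraction is named for iPSC with MEFs, so sorting and group cannot be told apart when a fraction is set against them. The all-gene median difference from iPSC with MEFs was -0.50 for the Sox2-negative and -0.45 for the Sox2-positive fraction. Between the day 32 sample and the fractions the median difference of all 8599 genes kept by the filter was 1.48 (Sox2-negative) and 1.46 (Sox2-positive). The lowest p that an exact permutation test (two-sided) of 2 against 2 arrays can give is 0.33, so tests used limma over all genes. Sox2 itself read 9.46 and 10.45 in the Sox2-positive and 4.45 and 4.13 in the Sox2-negative fraction, as the labels have it.

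**Figure D1:**
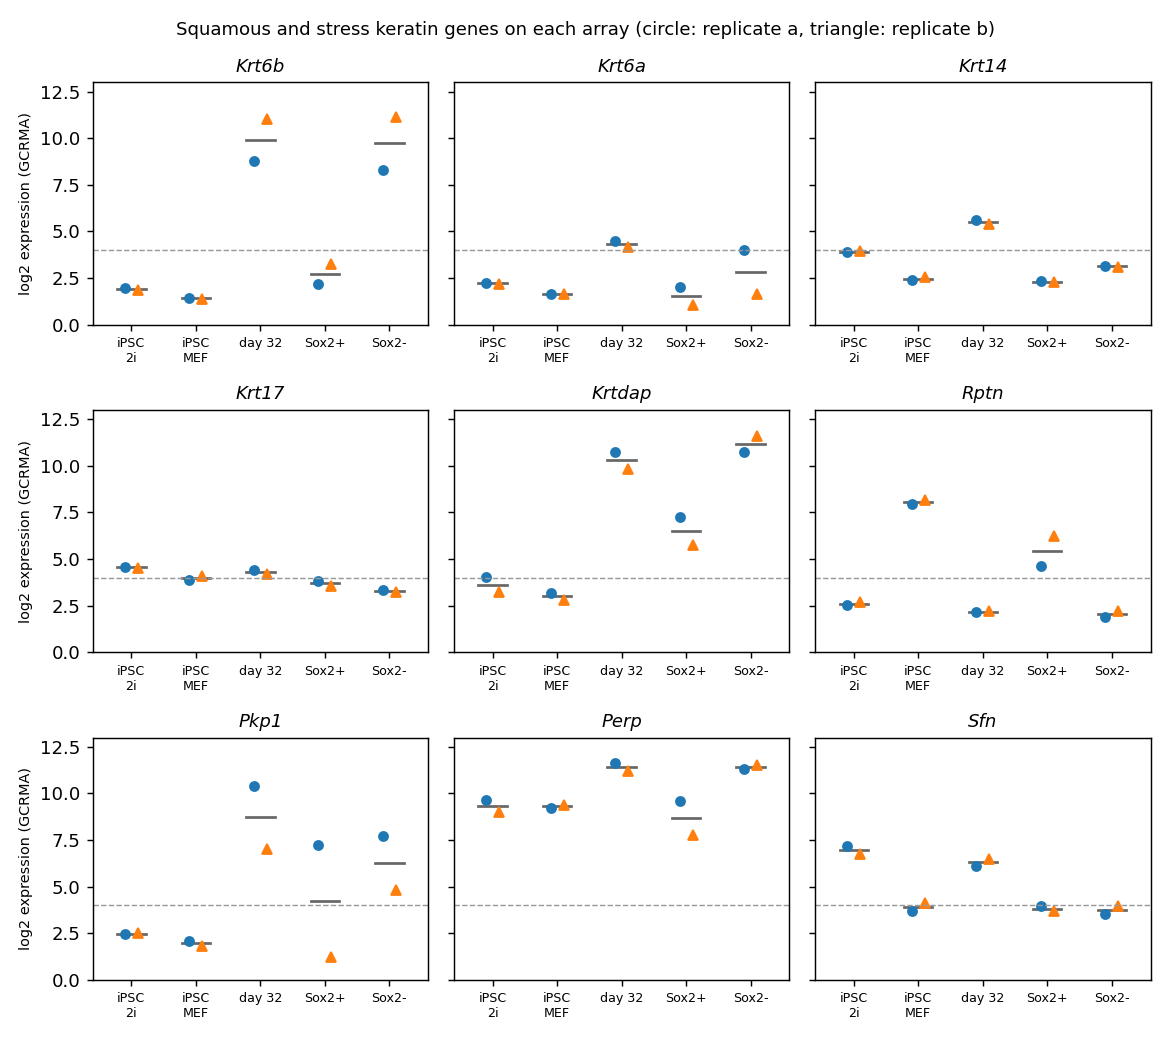
Deposited log2 expression (GCRMA) of the 9 genes on each of the 10 arrays, circles for replicate a, triangles for replicate b, bars for the mean of the 2 arrays and a dashed line at the filter value of 4. Krt6b, Krtdap and Perp are highest in the day 32 sample and the Sox2-negative fraction, Rptn in iPSC with MEFs and the Sox2-positive fraction, and Sfn in the day 32 sample and the iPSC kept in 2i and serum.

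The label of a keratinocyte-like fate was set against 18 markers of keratinocytes, of which 17 are on the array. Of the basal genes, Trp63, Krt5 and Krt15 were not above the filter value on any array. The 3 probe sets of Trp63 lay between 1.74 and 2.96 on all 10 arrays, Krt5 between 2.23 and 3.29, and Krt15, another basal keratin, between 2.20 and 2.92. Other basal genes were above it in places. Krt14 read 5.61 and 5.40 in the day 32 sample, the basal integrin gene Itga6 lay at 7.06 or more on all arrays, its partner Itgb4 reached 5.81 and the hemidesmosome collagen gene Col17a1 4.6. Genes of the differentiating layers were divided as well. Krt1 reached 2.87 at most, the cornified envelope protein genes Ivl and Lor 2.94 and 3.05, and the desmosomal cadherin gene Dsc3 2.71. Krt10 reached 6.54, in the Sox2-negative fraction, Flg 5.28, in the day 32 sample, and the cross-linking enzyme gene Tgm1 6.9, in the 2i and serum iPSC. In all 7 of the 17 markers stayed at or under 4 on every array, in every probe set. In the day 32 sample 8 of the 17 exceeded 4 on both arrays, against 6 in the 2i and serum iPSC, 3 where iPSC grew with MEFs, 3 in Sox2-positive and 4 in Sox2-negative cells. The summed linear intensity of the 17 was 5335 to 6671 in the day 32 sample, 4480 to 6390 in the Sox2-negative and 662 to 1263 in the Sox2-positive fraction, 2498 to 3292 in the 2i and serum iPSC and 1503 to 1517 in iPSC with MEFs. Of the 17, Krtdap, Perp, Sfn and Krt14 are members of the set itself, and Krtdap and Perp alone summed to 4238 to 6041 in the Sox2-negative fraction. The 13 markers that are not members summed to 222 to 325 there and 301 to 370 in the Sox2-positive fraction. They summed to 1716 to 1906 in the day 32 sample and 1846 to 2304 in the 2i and serum iPSC. By this sum neither the day 32 sample nor the Sox2-negative fraction stood above the iPSC of its array class. In iPSC with MEFs these 13 summed to 816 to 885. In the unsorted day 32 sample the pluripotency markers summed to 14228 to 27089 and fibroblast markers to 931 to 973, and their part in its squamous levels was not tested. Since Trp63, Krt5 and Krt15 were at background, no keratinocyte name is used, and the genes are described below as Krt6b, Krtdap and their companions.

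**Figure D2:**
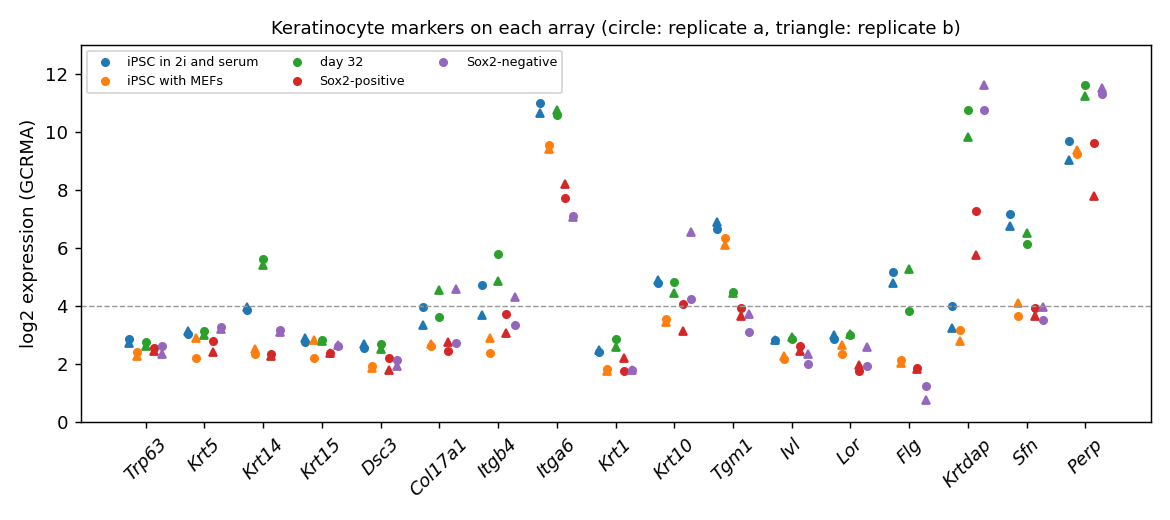
Deposited log2 expression of the 17 keratinocyte markers on each array, coloured by group, with a dashed line at 4. Trp63, Krt5, Krt15, Dsc3, Krt1, Ivl and Lor lie under the line on all 10 arrays, while Krtdap and Perp lie above 9 in the day 32 sample and the Sox2-negative fraction.

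Krt6b, a type II stress keratin, was close to off in iPSC and strongly on in 2 of the day 32 groups. It read 8.76 and 11.03 in the day 32 sample and 8.32 and 11.13 in the Sox2-negative fraction. In the Sox2-positive fraction it read 2.19 and 3.25, in the 2i and serum iPSC 1.98 and 1.88, and in the iPSC grown with MEFs 1.43 and 1.36. The 2 high groups overlapped and the 3 low groups lay under the filter value, where values have no meaningful order. In linear terms the day 32 sample was at least 59.5-fold above iPSC in 2i and serum, and the Sox2-negative fraction at least 52.9-fold above iPSC with MEFs. These folds are counted from the value of 4, since the lower group lay under it on both arrays.

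Krtdap, a small secreted protein of differentiating keratinocytes, followed Krt6b with an intermediate Sox2-positive fraction. It read 10.74 and 9.83 in the day 32 sample, 10.76 and 11.60 in the Sox2-negative and 7.27 and 5.77 in the Sox2-positive fraction. The iPSC arrays read 4.01 and 3.25 in 2i and serum, and 3.19 and 2.81 with MEFs. No array of the day 32 or Sox2-negative groups came as low as a Sox2-positive array, and no Sox2-positive array as low as an iPSC array. The Sox2-positive fraction was at least 5.74-fold and the Sox2-negative fraction at least 145-fold above iPSC with MEFs. No fold is given for the day 32 sample, since 1 of the 2 arrays of iPSC in 2i and serum lay under 4 and the other just above it.

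Perp, a membrane protein of desmosomes that is also induced by p53, was above the filter value on all 10 arrays, between 7.78 and 11.61. It read 11.61 and 11.22 in the day 32 sample and 11.29 and 11.52 in the Sox2-negative fraction. The other arrays read 9.62 and 7.78 in the Sox2-positive fraction, 9.67 and 9.02 in the 2i and serum iPSC, and 9.24 and 9.36 in iPSC with MEFs. The first 2 groups overlapped with each other and lay above the rest, and the last 3 overlapped with each other. The day 32 sample was 4.20-fold above iPSC in 2i and serum and the Sox2-negative fraction 4.30-fold above iPSC with MEFs, so the rise was small beside that of Krt6b and started from an expressed gene.

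For Krt6b, Krtdap and Perp, 3 of the 9 members, all 4 arrays of the day 32 sample and the Sox2-negative fraction stood above the 6 other arrays. This held for 3.36% of the 8599 genes, and since the members were chosen with day 32 levels known, nothing is read from the comparison. Between the day 32 sample and the Sox2-negative fraction, across the array classes, Krt6b differed by 0.17, Perp by 0.01 and Krtdap by -0.89 log2 units (day 32 minus Sox2-negative).

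Pkp1, the plakophilin that anchors keratin to desmosomes in stratified epithelium, was on in all 3 day 32 groups but not on every array. It read 10.42 and 7.0 in the day 32 sample, 7.74 and 4.84 in the Sox2-negative fraction, and 7.21 and 1.22 in the Sox2-positive fraction. The iPSC arrays lay between 1.79 and 2.53. Only 1 array of the Sox2-positive fraction carried signal, so its mean of 4.21 ± 4.24 (SD, n = 2) describes neither array. Replicate a was above replicate b in each of the 3 groups, by 3.42, 2.90 and 5.99 log2 units in the day 32, Sox2-negative and Sox2-positive groups. Krt6b went the opposite way in the same groups, with a minus b at -2.27, -2.81 and -1.06. The median absolute difference between replicates over all genes was 0.30, 0.41 and 0.39 there. These gaps therefore exceeded the usual spread between replicates, and the level of both genes in these groups is known only within wide limits.

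Krt6a, the close relative of Krt6b beside it in the type II keratin cluster on chromosome 15, was barely detected. Its best probe set read 4.48 and 4.19 in the day 32 sample, and 4.01 and 1.64 in the Sox2-negative fraction. All other arrays lay between 1.06 and 2.22. Its 2 other probe sets did not exceed 3.33 anywhere. Transcripts of Krt6a and Krt6b are alike in sequence, so a probe for one may pick up the other, and no probe sequences were used here to check this.

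Krt14, the type I partner of Krt5 in basal cells, exceeded 4 only in the day 32 sample. Its best probe set read 5.61 and 5.40 there, 3.87 and 3.96 in the 2i and serum iPSC, 3.17 and 3.11 in the Sox2-negative fraction, 2.34 and 2.29 in the Sox2-positive fraction, and 2.37 and 2.53 in iPSC with MEFs. The name of that probe set carries the suffix that the maker gives to probes shared with other transcripts. The 2 other Krt14 probe sets reached 3.78 and 2.40 at most. Krt17, a type I stress keratin, lay near the filter value everywhere, between 3.22 and 4.56 by its best probe set and between 1.41 and 1.91 by the other. Krt16, the usual partner of the Krt6 chains and no member of the set, read 4.52 and 4.48 in the day 32 sample and at most 3.89 elsewhere. Of the simple keratins, Krt8 read 9.68 ± 0.00 (SD, n = 2) in the day 32 sample, 9.23 ± 0.66 in the 2i and serum iPSC, 8.06 ± 0.18 in the Sox2-negative and 6.67 ± 0.80 in the Sox2-positive fraction, and 7.72 ± 0.22 in iPSC with MEFs. Krt18 read 5.97 ± 1.15, 6.38 ± 0.21, 3.13 ± 0.47, 4.39 ± 0.46 and 4.58 ± 0.16 in the same order of groups, and Krt19 6.06 ± 0.69, 4.33 ± 0.06, 3.81 ± 0.21, 2.63 ± 0.46 and 2.79 ± 0.19. Krt7 read 5.10 ± 0.73 in the day 32 sample and under 4 on both arrays of the Sox2-negative fraction and of both iPSC groups.

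Sfn, the 14-3-3 sigma protein that p53 and epithelial differentiation induce, did not share the pattern of Krt6b. It read 7.16 and 6.75 in the 2i and serum iPSC, and 6.13 and 6.5 in the day 32 sample. The 6 other arrays lay between 3.51 and 4.10. These high and low values are parted exactly as the array classes are. The same holds for Krt14 and Krt17, so that 3 of the 9 members had all 4 arrays of the class with low 18S above the 6 others. This was the case for 48.1% of all genes, so the share among the members was no higher. The difference between the day 32 sample and the fractions in these 3 genes cannot be told apart from the array class. Within a class Sfn differed by -0.64 log2 units between the day 32 sample and the 2i and serum iPSC, and by -0.15 between the Sox2-negative fraction and iPSC with MEFs.

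Rptn, a cornified envelope precursor of the fused S100 protein family, ran opposite to Krt6b except in iPSC in 2i and serum, where both lay under 4. It read 7.94 and 8.17 in iPSC with MEFs and 4.65 and 6.25 in the Sox2-positive fraction. In iPSC in 2i and serum it read 2.52 and 2.68, in the day 32 sample 2.14 and 2.22, and in the Sox2-negative fraction 1.87 and 2.21. By this probe set the 2 groups with signal did not overlap with each other or with the rest. The other Rptn probe sets gave lower values in the same groups, 4.03 and 3.89 in iPSC with MEFs and 3.48 and 4.67 in the Sox2-positive fraction by one, and 4.75 and 4.13, and 4.22 and 3.18, by the other. All other arrays lay between 1.28 and 2.52 on both. In 1 of the 9 members, Rptn, all 4 arrays of iPSC with MEFs and the Sox2-positive fraction stood above the 6 others, a pattern found in 1.19% of all genes.

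**Figure D3:**
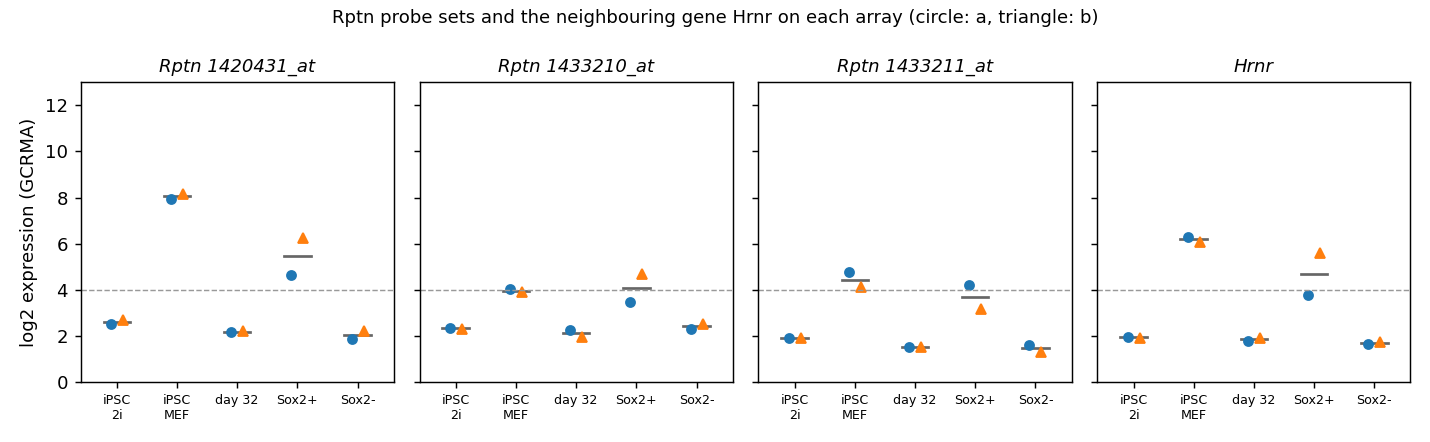
Deposited log2 expression of the 3 Rptn probe sets and of Hrnr on each array, circles for replicate a, triangles for replicate b, bars for means and a dashed line at 4. In each panel the 4 arrays of iPSC with MEFs and of the Sox2-positive fraction lie above the 6 others.

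The gene with the most similar profile to Rptn was its neighbour. Likeness was measured as the root mean square difference over the 10 arrays after centring each gene, among 8599 genes. For Rptn the nearest were Hrnr (0.58 log2 units), Nr6a1 (0.75) and Zcchc3 (1.06). Hrnr, which encodes hornerin, another fused S100 protein, lies next to Rptn among the coding genes of chromosome 3. It read 6.30 and 6.09 in iPSC with MEFs, 3.76 and 5.57 in the Sox2-positive fraction, and between 1.66 and 1.94 on the 6 other arrays. Flg, on the other side of Hrnr, did not share this and read 5.16 and 4.81 in the 2i and serum iPSC and 3.84 and 5.28 in the day 32 sample, against at most 2.13 elsewhere. Tchh, on the other side of Rptn, read 5.62 and 7.20 in the 2i and serum iPSC and 6.81 and 6.03 in the day 32 sample, against at most 3.65 elsewhere. In Flg and Tchh the high and low values are parted as the array classes are. For Krt14 the nearest were Blvra (0.22), Ccdc71l (0.23) and Fcgbp (0.24), for Sfn Prkaca (0.17), Smarcal1 (0.21) and Deaf1 (0.24), and for Krt6a Bmp2 (0.32), Zdhhc14 (0.37) and Prom1 (0.43). Such a likeness over 10 arrays in 5 groups also reflects the array classes and says nothing of shared control.

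Promoters are shown for Krtdap, which was higher in the Sox2-negative fraction, and for Rptn and Hrnr, which were higher in the Sox2-positive fraction. Hrnr, and Rptn by its brightest probe set, were highest in iPSC with MEFs. On 1 of the 2 Sox2-positive arrays Hrnr read only 3.76. RefSeq sequences (build GRCm38.p6) from 250 bases before to 50 bases after the gene start were found for 4 of the 9 members, Krtdap, Rptn, Sfn and Krt14, and for Hrnr. Both strands were searched for a TATA box (TATAAA) and for TGANTCA, and matches are in capitals. TGANTCA is a loose form of the AP-1 motif of Fos and Jun factors that allows any middle base. The motifs do not overlap in these windows. Krtdap lies at chr7:30787655-30787954, Rptn at chr3:93393449-93393748 and Hrnr at chr3:93319499-93319798, all on the plus strand.
Krtdap: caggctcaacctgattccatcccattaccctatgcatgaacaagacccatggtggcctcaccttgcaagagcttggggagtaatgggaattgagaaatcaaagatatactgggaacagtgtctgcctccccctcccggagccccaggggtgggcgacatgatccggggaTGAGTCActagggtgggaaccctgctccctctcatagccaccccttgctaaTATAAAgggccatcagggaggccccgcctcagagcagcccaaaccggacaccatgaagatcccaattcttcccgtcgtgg
Rptn: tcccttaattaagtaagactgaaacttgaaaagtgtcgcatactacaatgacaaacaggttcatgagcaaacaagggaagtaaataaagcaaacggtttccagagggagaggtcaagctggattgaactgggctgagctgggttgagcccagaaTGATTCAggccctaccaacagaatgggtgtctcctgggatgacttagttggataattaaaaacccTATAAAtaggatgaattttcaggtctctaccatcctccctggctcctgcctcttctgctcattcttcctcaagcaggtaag
Hrnr: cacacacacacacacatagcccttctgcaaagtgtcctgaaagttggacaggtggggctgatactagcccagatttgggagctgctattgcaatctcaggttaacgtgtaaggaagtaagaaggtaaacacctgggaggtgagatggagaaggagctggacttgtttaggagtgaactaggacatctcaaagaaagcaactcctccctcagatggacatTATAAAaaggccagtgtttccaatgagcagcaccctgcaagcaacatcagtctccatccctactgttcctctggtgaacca

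Krtdap and Rptn each held 1 TATA box, at positions -30 and -31 from the gene start, and 1 TGANTCA match, at positions -81 and -96. The latter matches differ in the middle base, TGAGTCA in Krtdap and TGATTCA in Rptn. Hrnr held a TATA box at position -31 and no TGANTCA match. The windows of Sfn and Krt14 held neither. Of all 32851 promoter windows of this length, 13.6% held TATAAA and 7.81% held TGANTCA. Krtdap and Rptn thus both hold a TATA box, while their TGANTCA matches are not the same site. Their levels ran in opposite directions between the fractions. A match describes letters only, and no binding data were used here.

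The sorted fractions gave the test that did not use the day 32 sample, and it split the set. Krt6b, Krtdap, Perp and Krt14 fell and Rptn rose in the Sox2-positive relative to the Sox2-negative fraction, while Krt6a, Krt17, Pkp1 and Sfn did not pass. Limma called 5 of the 9 genes (adjusted p under 0.05), with 1 higher and 4 lower, against 12.5% of the 8599 genes (6.86% higher and 5.65% lower). Without Sox2-positive replicate b the number of all genes called fell from 1076 to 404. The median difference of the 9 was -1.27, and that of all genes was -0.02. The arrays did not overlap in 2 members higher and 4 lower, against 25.8% of all genes higher and another 25.8% lower. The Krt6b result had been seen before the set was drawn up, and the fractions come from day 32 cells, so these counts describe the members and do not support the choice of them. As these are bulk samples, fewer cells of a kind and less RNA per cell cannot be told apart.

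**Figure D4:**
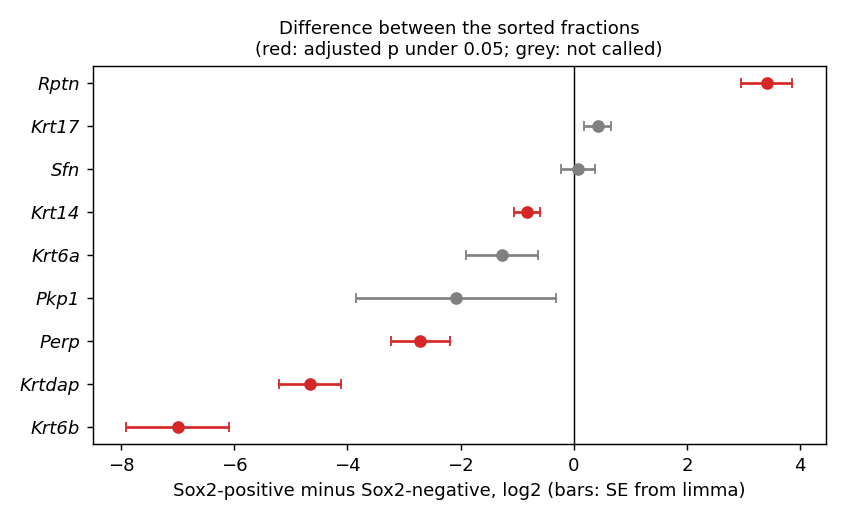
Difference between the Sox2-positive and the Sox2-negative fraction in log2 units for the 9 genes, with standard errors from limma, red where the adjusted p was under 0.05. Rptn lies at 3.41, Krt14, Perp, Krtdap and Krt6b lie between -0.82 and -7.0, and Krt17, Sfn, Krt6a and Pkp1 were not called.

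The difference of Krt6b was -7.0 log2 units (SE 0.91), at least 52.9-fold lower in the Sox2-positive fraction, with a limma adjusted p = 0.0023. Krtdap differed by -4.66 (SE 0.54), or 25.3-fold (limma adjusted p = 0.0014), and Perp by -2.71 (SE 0.52), or 6.52-fold (limma adjusted p = 0.0130). Rptn was higher by 3.41 (SE 0.45), at least 2.73-fold (limma adjusted p = 0.0023). Its other probe sets differed by 1.67 and 2.25 in the same direction (limma adjusted p = 0.0217 and 0.0068 over all 14012 kept probe sets). These 4 genes had both arrays of one fraction above both of the other. The SE pools the spread of all groups, and Krt6b varied less in iPSC (SD 0.07 and 0.05) than in the Sox2-positive (0.75) and Sox2-negative (1.99) fractions. With the compared groups alone the limma adjusted p was 0.0239 for Krt6b, 0.0209 for Krtdap and 0.0427 for Rptn. Leaving out 1 of the 4 arrays moved the difference of Krt6b between -8.41 and -5.60, of Krtdap between -5.41 and -3.91 and of Rptn between 2.61 and 4.21, and all 3 kept their calls. Perp moved between -3.62 and -1.78, with the call lost without Sox2-negative replicate b (limma adjusted p = 0.0507) and with the compared groups alone (0.0917).

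Krt14 passed by a small margin with values that lay under 4 in both fractions. It differed by -0.82 (SE 0.23, limma adjusted p = 0.0460), and the call was lost without any single array of the fractions (adjusted p from 0.0868 to 0.1417), so no fold is given. Krt6a differed by -1.27 (SE 0.64, limma adjusted p = 0.2290), and without Sox2-negative replicate b the difference was -2.46 (adjusted p = 0.0128). Pkp1 differed by -2.08 (SE 1.77, limma adjusted p = 0.4808), and its sign turned to 0.92 without Sox2-positive replicate b. Krt17 differed by 0.42 (SE 0.24, adjusted p = 0.2849) and Sfn by 0.07 (SE 0.30, adjusted p = 0.9069), the latter with overlapping arrays.

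Markers of other cell types moved with this comparison, in which 6.86% of all genes were called higher and 5.65% lower. All 10 pluripotency markers were called higher in the Sox2-positive fraction, with summed linear intensities of 12606 to 16494 against 606 to 701. These include Sox2, by which the fractions are named. Of 9 markers of simple epithelium, 6 were called higher and 0 lower (2469 to 3826 against 597 on both arrays). Of 12 fibroblast markers 8 passed the filter, 0 were called higher and 1 lower (S100a4, at least 7.41-fold), with sums of 69 to 86 against 293 to 294, and Postn, Dcn and Lum stayed at or under 4 on every array. Of 8 trophoblast markers 3 passed, with 1 called higher (Ascl2), and Cdx2, Elf5, Hand1, Tpbpa and Plac1 stayed at or under 4 throughout. Of 6 leukocyte markers 2 passed, with 1 higher (Cd68), and Ptprc, Csf1r, Lyz2 and Tyrobp stayed at or under 4 throughout. Sums were 3196 to 4470 against 2744 to 3095 for trophoblast and 144 to 148 against 42 on both arrays for leukocytes. The trophoblast sums rest mainly on Tfap2c, which read 11.61 and 12.07 against 11.58 and 11.40. The part of these other cells in the levels of Krt6b, Krtdap, Perp and Rptn was not tested.

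The other genes of the squamous program did not move together between the fractions. Of a list of 91 such genes, 72 are on the array, 35 of them stayed at or under 4 on every array and 32 passed the filter. Limma called 6 higher and 4 lower in the Sox2-positive fraction, beside 6.86% and 5.65% of all genes. Their median difference was 0.32, against -0.02 for all genes. After quantile normalization 5 were called higher and 6 lower. Higher were the transcription factor gene Klf5 (30.9-fold), the laminin chain gene Lama3 (6.36-fold), the connexin gene Gjb5 (6.73-fold), Hrnr (at least 1.59-fold), the desmosomal cadherin gene Dsg2 (3.22-fold) and the protease gene Klk8 (at least 1.19-fold). Lower were the protease inhibitor gene Slpi (at least 1.31-fold), the annexin gene Anxa8 (7.65-fold), the surface ectoderm factor Tfap2a (13.5-fold) and the growth factor carrier Fgfbp1 (4.52-fold). Their limma adjusted p ran from 9.53e-04 for Klf5 to 0.0490 for Dsg2. Most of the higher genes were expressed in iPSC too. In iPSC with MEFs the means of Klf5, Lama3, Gjb5 and Dsg2 were 11.09, 6.48, 7.53 and 9.63. In 2i and serum they were 10.05, 7.83, 8.52 and 10.76. Hrnr and Klk8 had means of 6.20 and 4.61 with MEFs and 1.93 and 5.14 in 2i and serum. Among the lower genes Fgfbp1 had means of 7.12 and 7.15 in these groups. The part of pluripotent cells in these calls was not tested. Leaving out Sox2-negative replicate b left 5 calls in the list. Klf5, Lama3, Gjb5, Hrnr and Slpi kept their calls on leaving out any of the 4 arrays. Fgfbp1 (adjusted p from 0.0708 to 0.1188) and Klk8 (0.0654 to 0.2026) lost theirs without any one of them. Tfap2a lost its call without Sox2-negative replicate a (0.0568) or b (0.0607), Anxa8 without Sox2-negative replicate b (0.0634), and Dsg2 without that array (0.1851) or Sox2-positive replicate b (0.2288).

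Tfap2a and Anxa8 were high in the same groups as Krt6b and Krtdap. Tfap2a read 9.47 and 8.82 in the day 32 sample, 9.31 and 9.45 in the Sox2-negative fraction, 7.06 and 4.18 in the Sox2-positive fraction, 5.74 and 6.15 in the 2i and serum iPSC, and 3.31 and 2.13 in iPSC with MEFs. Anxa8 read 10.38 and 9.76, 8.81 and 9.54, 7.25 and 5.23, 5.81 and 5.53, and 3.84 and 3.37 in that order. In both genes the day 32 and Sox2-negative arrays stood above all others. This held for 3.36% of the 8599 genes. Among them were also Slpi, Dsp, the fibroblast markers S100a4 and Twist2, and the p53 target Plk2. Most genes of the wider squamous list lacked the pattern. The pattern of Tfap2a and Anxa8 was picked out after their values were seen. Desmoplakin (Dsp), the partner of Pkp1 in desmosomes, read 10.93 and 10.95 in the day 32 sample and 11.11 and 10.90 in the Sox2-negative fraction, against 9.96 and 8.98 in Sox2-positive cells (limma adjusted p = 0.0527), a gene singled out after its values were seen. Krt16 differed by -0.20 between the fractions (limma adjusted p = 0.6925), Krt10, a keratin of differentiating layers, by -1.78 (0.0963) and Flg by 0.83 (0.2363). Of the simple keratins Krt7 was called (at least 1.15-fold higher in Sox2-positive cells, limma adjusted p = 0.0184), a call lost without replicate b of the Sox2-positive (0.0962) or of the Sox2-negative fraction (0.0657). Krt8 differed by -1.40 (0.0601), Krt19 by -1.18 (0.0650) and Krt18 by 1.26 (0.1295).

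Sfn and Perp are also known targets of p53, a stress response factor that restrains reprogramming. Of 18 other p53 targets measured, 1 was called higher and 1 lower between the fractions, beside 6.86% and 5.65% of all genes. Their median difference was -0.51, against -0.02 for all genes. The lower gene was the nuclease gene Aen (2.08-fold, limma adjusted p = 0.0334) and the higher gene Gadd45a (4.84-fold, 0.0345), named after their values were seen.

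Against iPSC of the same array class several of the 9 genes were higher in the day 32 and Sox2-negative cells. Both day 32 arrays exceeded both arrays of iPSC in 2i and serum in 6 of the 9 members (Krt6b, Krtdap, Pkp1, Perp, Krt6a and Krt14) and lay below them in 3 (Krt17, Sfn and Rptn), beside 26.4% and 36.0% of all genes. Both Sox2-negative arrays exceeded both arrays of iPSC with MEFs in 5 members and lay below in 2, beside 21.9% and 54.0% of all genes. These shares are given for size only, because day 32 levels guided the choice. Rptn in the first comparison and Krt14 in the second lay under 4 on every array compared, where values have no meaningful order. In the first comparison the differences were 7.96 for Krt6b, 6.66 for Krtdap, 6.23 for Pkp1, 2.13 for Krt6a, 2.07 for Perp, 1.59 for Krt14, -0.25 for Krt17, -0.64 for Sfn and -0.42 for Rptn, around an all-gene median of -0.10. In the second they were 8.33, 8.18, 4.34, 1.19, 2.10, 0.69, -0.72, -0.15 and -6.01 in the same order of genes, around -0.50. Where one group lay under 4 on both arrays, as for Krt6b in iPSC and Rptn in the Sox2-negative fraction, such a difference has no exact size and the bound counted from 4 is the safer value, at least 16.6-fold lower for Rptn. Averaged over its 3 probe sets, Rptn differed by -3.52 in the second comparison. The 32 genes of the wider squamous list that passed the filter had a median of -0.10 between the day 32 sample and iPSC in 2i and serum, the same as all genes.

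In the Sox2-positive fraction Krtdap was the member that stayed above iPSC with MEFs on both arrays with a level over 4, by 3.52 log2 units. Krt6b was 1.32 higher with every array under 4. Perp differed by -0.60 with overlapping arrays, and Rptn by -2.60, or 6.08-fold lower, by its brightest probe set. The other Rptn probe sets did not bear this out, with means of 4.08 against 3.96 and 3.70 against 4.44 and overlapping arrays. Krt6a, Krt14, Krt17 and Sfn differed by -0.08, -0.14, -0.30 and -0.08, and Pkp1 by 2.27 with overlapping arrays. Krt6a and Krt14 lay under 4 on every array compared. The median of all genes was -0.45. Relative to it Perp differed by -0.15, and Krt6a, Krt14, Krt17 and Sfn by 0.37, 0.32, 0.15 and 0.37, so these 4 small differences changed sign.

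The 2 iPSC groups differed in Rptn and Sfn, in opposite directions. Rptn was at least 16.6-fold lower in iPSC in 2i and serum than in iPSC with MEFs (difference -5.46, SE 0.45, limma adjusted p = 4.88e-05), and its other probe sets differed by -1.64 and -2.54. Sfn was 8.40-fold higher (difference 3.07, SE 0.30, adjusted p = 9.24e-05), and Krt14 differed by 1.47 (SE 0.23, adjusted p = 6.80e-04) with every array under 4. Limma called 3 of the 9 members, 2 higher and 1 lower, beside 61.1% of all genes (52.9% higher and 8.15% lower). The groups lie in different array classes and the median of all genes was 1.0, so class and culture cannot be told apart. Relative to that median the differences were 2.06 for Sfn, -6.46 for Rptn and 0.46 for Krt14. With arrays centred on their medians Sfn and Rptn kept their calls (differences 1.96 and -6.57) and Krt14 lost it (0.35, limma adjusted p = 0.2447), and the split of all genes called became 1527 higher and 2266 lower. Quantile normalization gave 1838 higher and 1282 lower. The fibroblast markers had summed intensities of 297 to 331 in iPSC with MEFs and 294 to 340 in 2i and serum. The like sums hide opposite moves of single markers. Col1a2 read 5.59 and 5.27 with MEFs against 2.45 and 2.44, while Twist1 read 4.40 and 3.99 against 5.84 and 6.23. Of the 8 fibroblast markers that passed the filter, limma called 3 higher and 1 lower in 2i and serum. Their median difference was 0.21, against 1.0 for all genes. The part of feeder cells in the member levels was not tested. The other 6 members were not called, and the signs of Krt6a, Krt6b, Krt17, Krtdap, Perp and Pkp1 turned with centring.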

How the data were processed

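Each of the 10 mouse samples was measured on 1 single-channel array. The authors made the deposited log2 values with GCRMA and the affy package, per the submitters' processing notes, which as held here name no versions. GCRMA corrects background by probe sequence and compresses dim values. RNA was amplified with either of 2 NuGEN kits, per the labels' protocols. Of 22690 probe sets, 20380 carried a single gene symbol in the platform annotation (20351 matched by Entrez ID, 0 symbols changed). Those with several symbols (691, among them one for Krt14 and Krt17) or none (1555) and 64 controls were left out.

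Probe sets above 4 on at least 2 arrays were kept (14012), and the one with the highest mean stood for its gene (8599 genes). Limma 3.58.1 in R 4.3.3 fitted 1 mean per group over all 10 arrays. Calls needed a Benjamini-Hochberg adjusted p under 0.05 over all genes. The fit was tested on simulated data. Where the lower group lay under 4 on both arrays, a fold is counted from 4. Named are all members, called genes of the wider squamous list, fixed basal and cornified markers, the simple keratins, and the 3 nearest profiles of 4 members. The members and lists were chosen with earlier results of these data known. Alternatives covered normalization, filter, probe set choice, array weights, the arrays fitted, a replicate block and leaving out each array. The number of arrays limits the precision.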

Additional observations from a re-analysis of the deposited data

How the results depend on the processing

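Between the fractions 4 of the 9 members were called on leaving out any 1 of the 4 arrays (4 in each case), and 3 with the compared groups alone. All genes called numbered 1076, with 369 under array weights, 323 with the compared groups alone, and 404 to 1052 on leaving out 1 array, the lowest without Sox2-positive replicate b. The wider squamous list gave 4 with the compared groups alone and 5 to 12 on leaving out 1 array. In the iPSC comparison the number of members called was 2 with centring and 3 or 4 otherwise, and that of all genes 3120 after quantile normalization and 3944 to 4193 without 1 array. Krt14 also lost its call between the fractions with centring (limma adjusted p = 0.0513), array weights (0.1406) and the compared groups alone (0.2115). The cause was not tested.

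Signs turned as follows. Between the fractions, leaving out 1 array moved Sfn between -0.16 and 0.29 (-0.06 without Sox2-positive replicate a) and Pkp1 between -5.07 and 0.92. Between the iPSC groups, centring gave -0.55 for Krt6a, -0.58 for Krt6b and for Pkp1, -0.56 for Krt17, -0.49 for Krtdap and -1.07 for Perp. Quantile normalization gave -0.33 for Krt17, -0.02 for Krtdap and -0.64 for Perp, and leaving out 1 array moved Perp between -0.28 and 0.37 (-0.02 without iPSC with MEFs replicate a). None of these had been called.

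Each described difference was recomputed under several alternative settings, which gave 315 values. Of these, 37 moved by more than the spread between replicates, mostly across the array classes. At a level of 5 in place of 4, the groups with both arrays above it changed for 4 of the 9 members. Krt6a and Krt17 exceeded it in 0 groups. Rptn no longer did so in the Sox2-positive fraction (4.65 and 6.25), nor Pkp1 in the Sox2-negative fraction (7.74 and 4.84).

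The letters a and b are not said to pair samples. Their differences over genes correlated at 0.33 between the day 32 sample and the Sox2-positive fraction, 0.21 between it and the Sox2-negative fraction, and 0.05 between the fractions. With the letter as a replicate block 4 members were called between the fractions, Krt14 having an adjusted p = 0.0579 in limma, and 1180 of all genes.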
